A study of Mus musculus with 6 samples.

Results

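Semaphorins, their plexin receptors and the neuropilin co-receptors were measured in mouse embryonic fibroblasts (MEFs) labelled as wild-type (WT) or as lacking Gαq, the alpha subunit of the Gq protein that couples receptors to phospholipase C. The genes were chosen by symbol: every protein-coding gene that the mouse annotation names Sema with a class number and letter, Plxn with a class letter, or Nrp, which gave 31 of the 56953 genes in the table. They comprised 20 semaphorins, 9 plexins and 2 neuropilins. The 6 bulk RNA-seq libraries were 3 labelled WT and 3 labelled with the genotype GalfaqKO, called GαqKO here, and both kinds of MEF grew in DMEM with fetal bovine serum. The study's methods call the mutant cells Gαq/11 knock-out MEFs, so that Gna11, the gene of the sister subunit Gα11, is targeted as well as Gnaq, and 1 outside laboratory supplied both kinds of cell. The methods speak of 3 biological replicates per genotype but do not say whether these came from separate embryos or cell lines, so the p-values below measure the spread between these libraries, which may be technical.

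Semaphorins are guidance cues that act at short range on axons, vessels, immune cells and fibroblasts. Class 3 members are secreted, classes 4, 5 and 6 span the membrane, and Sema7a is held by a lipid anchor. Plexins are the receptors that carry the signal, through a cytoplasmic domain that switches off small GTPases of the Ras and Rap families, while neuropilins bind most class 3 semaphorins on behalf of a plexin and also bind vascular endothelial growth factors.

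All values are normalized counts, that is, reads per gene divided by 1 size factor per library, and the columns summed to between 11392429 and 11483486. The reads behind them numbered between 9853000 and 12229175 in the 5 libraries in which they were recovered. The targeted genes were examined first. Gna11 fell from 2148 ± 29.0 (SD, n = 3) to 452 ± 28.7 normalized counts, whereas Gnaq was not lower in the libraries labelled GαqKO, at 1691 ± 48.5 in WT and 1926 ± 36.0 in GαqKO (log2 fold change 0.19, limma adjusted p = 0.00212). Counts per gene do not show whether a deleted exon is missing, and GαqKO below stands for the label. The study reports loss of Gαq protein in its GαqKO MEFs by Western blot and immunofluorescence, which RNA counts do not measure. The Y-linked genes Kdm5d, Eif2s3y, Uty and Ddx3y were at 0 in all 3 GαqKO libraries and between 262 and 1239 in WT, so that genotype and origin of the cells cannot be told apart. Fibroblast markers summed to 84228 to 89978 in WT and 62438 to 65643 in GαqKO, but 3 of the 9 were low in WT: Pdgfra (17.5 to 21.9, against 2274 to 2356 in GαqKO), Dcn (30.1 to 35.5, against 1604 to 1710) and Thy1 (at most 2.09, against 58.97 to 76.5). By limma at an adjusted p under 0.05, 4 of the 9 were higher in GαqKO, these 3 and Pdgfrb. The other 5 were lower, with log2 fold changes from −1.53 for Col1a1 to −0.18 for Col3a1, and Col1a2, Fn1 and Vim between them. The 5 epithelial markers summed to 515 to 541 in WT and 10.1 to 23.1 in GαqKO, with Cdh1 at 235 to 241 in WT and Krt14 at 254 to 261, while Epcam was at 5.22 or less there. Sums ran from 104 to 115 in WT and 73.2 to 104 in GαqKO for leukocyte markers, from 837 to 957 and 582 to 615 for neuronal and glial markers, from 652 to 814 and 267 to 308 for smooth muscle markers, and from 12.6 to 23.4 and 18.8 to 26.6 for endothelial markers. These differences run with the same labels as every result below, and their part in those results was not tested. In bulk RNA, fewer cells that express a gene and less RNA per cell cannot be told apart.

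The comparison was made to ask how loss of Gαq changes expression in fibroblasts, but it sets cells labelled GαqKO against cells labelled WT. It cannot separate loss of Gαq from that of Gα11 or from the origin of the cells. Most of the ligand and receptor genes differed between genotypes, in both directions. Of the 31 genes, 28 reached 10 normalized counts in 3 or more libraries and were tested by limma on log2(normalized count + 1), with the Benjamini-Hochberg adjustment over all 14096 genes tested. At an adjusted p under 0.05, 7 were higher and 15 lower in GαqKO, or 78.6% of those tested, beside a background of 65.8% of all genes tested (31.8% higher and 34.1% lower). With the further condition of a log2 fold change above 1 in size, 7 were higher and 12 lower, or 67.9%, beside a background of 20.7% (10.2% higher and 10.5% lower). The median log2 fold change was −0.36 over the 28 genes and −0.01 over all genes tested, and the median size was 1.61 and 0.39. The 3 genes not tested were Sema3d, Plxna4 and Plxnc1, and 6 more (Sema3e, Sema4f, Sema5b, Sema6a, Sema6b and Plxnb3) reached the minimum in only 1 group and so had to differ. Here and below this means that no library of the other group reached 10, so the groups could not overlap, although a call was not fixed. Among the 22 genes with at least 1 library at 10 in each group, called through both groups, 5 were higher, 11 lower and 13 past the fold, or 59.1%, with a median size of 1.11, beside 15.2% and 0.36 over all 13151 genes that did so. The filter still bears on Sema4a, Sema4d and Sema6c, which are among the 13. Each had 1 library under 10 in its lower group (7.31 in WT 1, 3.47 in GαqKO 2 and 9.06 in GαqKO 3).

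**Figure D1:**
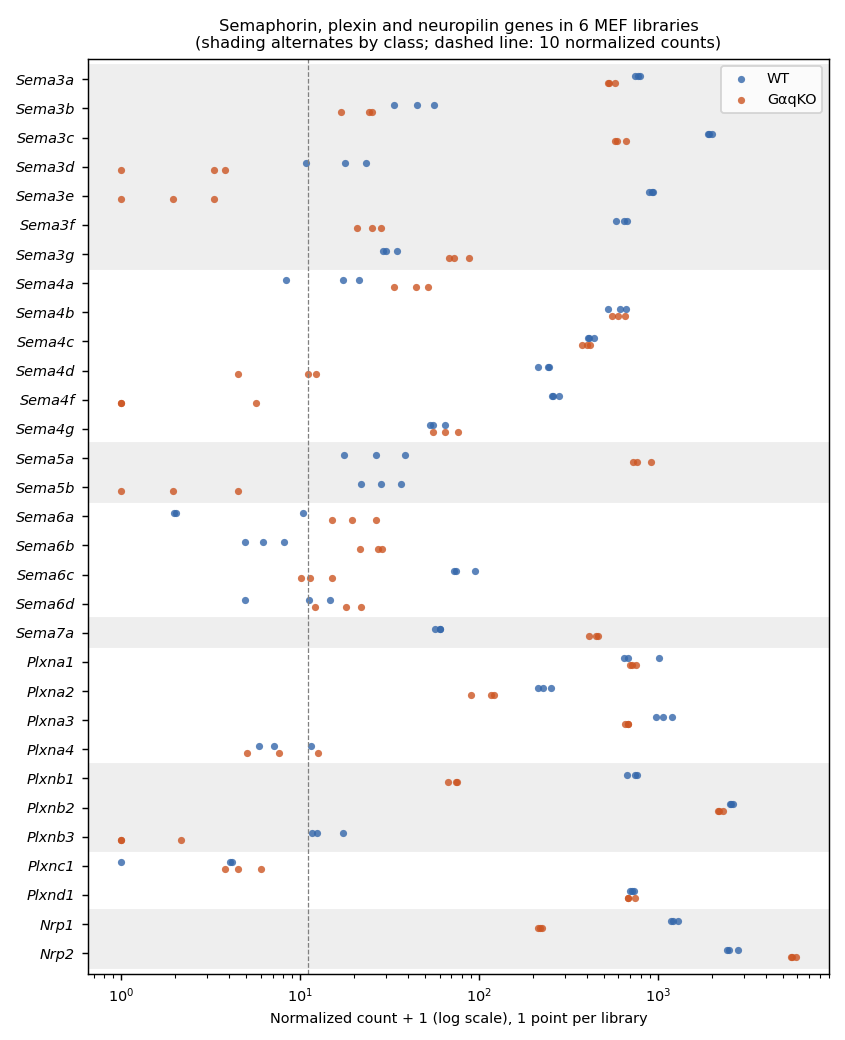
Normalized count + 1 of each of the 31 genes on a log axis, with 1 point per library, blue for WT and orange for GαqKO, and a dashed line at the minimum of 10 normalized counts. The points of the 3 libraries of a genotype lie close together for the abundant genes, and the 2 colours lie far apart for Sema3e, Sema3f, Sema4d, Sema4f, Sema5a, Sema7a and Plxnb1.

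Promoters are shown for the 3 genes with the largest fall and the 3 with the largest rise among members whose mean over the 6 libraries reached 100 normalized counts. Each window runs from 250 bases before to 50 bases after the annotated start, from RefSeq on build GRCm38.p6, which is not the build of the counts. The Sema3e window is chr5:14025026-14025325 (plus strand), that of Sema4f is chr6:82939720-82940019 (minus strand), and that of Sema4d, the most upstream of its 3 annotated starts, is chr13:51756634-51756933 (minus strand). Those of the genes that rose are chr15:32244563-32244862 (plus strand) for Sema5a, chr9:57939862-57940161 (plus strand) for Sema7a and chr1:62703067-62703366 (plus strand) for Nrp2. Capitals mark every GC box (GGGCGG, the motif bound by Sp1), CCAAT box (CCAAT) and E-box (CACGTG), on either strand. The first 3 sequences are those of the genes that fell.
Sema3e: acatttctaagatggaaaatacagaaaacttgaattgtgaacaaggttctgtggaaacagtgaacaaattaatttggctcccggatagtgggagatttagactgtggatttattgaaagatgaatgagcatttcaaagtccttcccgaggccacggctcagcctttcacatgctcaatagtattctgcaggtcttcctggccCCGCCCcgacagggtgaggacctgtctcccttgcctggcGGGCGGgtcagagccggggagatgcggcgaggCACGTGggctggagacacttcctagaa
Sema4f: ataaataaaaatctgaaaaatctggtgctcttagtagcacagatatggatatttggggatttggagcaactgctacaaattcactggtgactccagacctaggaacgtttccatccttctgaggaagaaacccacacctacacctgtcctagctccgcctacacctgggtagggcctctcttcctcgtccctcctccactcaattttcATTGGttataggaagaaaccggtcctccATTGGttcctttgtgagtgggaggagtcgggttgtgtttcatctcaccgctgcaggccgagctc
Sema4d: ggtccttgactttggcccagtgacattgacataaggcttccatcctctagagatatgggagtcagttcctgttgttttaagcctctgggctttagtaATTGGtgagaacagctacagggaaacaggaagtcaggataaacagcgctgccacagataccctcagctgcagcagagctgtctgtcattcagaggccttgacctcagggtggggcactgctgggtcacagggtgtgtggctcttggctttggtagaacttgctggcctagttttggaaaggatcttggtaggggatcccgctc
Sema5a: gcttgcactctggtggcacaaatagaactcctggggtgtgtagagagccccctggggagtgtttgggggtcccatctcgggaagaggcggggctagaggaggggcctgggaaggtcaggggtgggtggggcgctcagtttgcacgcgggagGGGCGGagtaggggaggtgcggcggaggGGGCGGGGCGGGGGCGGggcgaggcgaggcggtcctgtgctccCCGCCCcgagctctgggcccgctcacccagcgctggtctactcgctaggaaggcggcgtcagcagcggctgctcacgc
Sema7a: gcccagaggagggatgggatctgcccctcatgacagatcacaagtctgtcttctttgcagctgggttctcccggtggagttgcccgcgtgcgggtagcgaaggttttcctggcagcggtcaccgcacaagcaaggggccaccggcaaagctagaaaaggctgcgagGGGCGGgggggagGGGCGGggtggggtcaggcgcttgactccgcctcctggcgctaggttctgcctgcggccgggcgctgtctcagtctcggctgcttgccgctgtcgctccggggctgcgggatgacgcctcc
Nrp2: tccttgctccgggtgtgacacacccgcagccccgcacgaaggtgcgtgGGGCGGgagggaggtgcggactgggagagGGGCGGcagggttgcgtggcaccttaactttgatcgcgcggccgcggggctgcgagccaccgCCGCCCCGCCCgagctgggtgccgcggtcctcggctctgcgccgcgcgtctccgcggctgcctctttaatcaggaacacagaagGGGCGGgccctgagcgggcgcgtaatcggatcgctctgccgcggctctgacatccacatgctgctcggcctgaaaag

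The windows of the 3 genes that fell held fewer CpG dinucleotides than the family median of 23, with 11 in Sema3e, 7 in Sema4f and 2 in Sema4d, whose other starts had 3 each. Those of the genes that rose held 23 in Sema5a, 23 in Sema7a and 37 in Nrp2. This division did not extend to the other members, since Plxnb1 and Sema3c, which also fell, had 36 and 42. That median is over the 26 members with a window in the table, and the median over all 27025 promoters was 7. A GC box stood in 20 of the 26 (76.9%) and in 35.92% of all promoters of the same length, a CCAAT box in 4 of the 26 (15.4%) and 38.02%, and an E-box in 2 (7.7%) and 7.24%. Of the other motifs searched on both strands, the TATA box (TATAAA) was in none of the 26 and in 14.16% of all promoters, the AP-1 site (TGACTCA) in 1 and 5.17%, the TEAD site (GGAATG) in 2 and 14.65%, and the cyclic AMP response element (TGACGTCA) and the CArG box of SRF in none, beside 1.85% and 1.59%. Neighbouring GC boxes overlap by 1 base in Sema5a and in Nrp2. A match describes the letters and does not show a site in use.

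Among the secreted class 3 semaphorins, 5 of the 6 tested genes fell and 1 rose, and Sema3e and Sema3f were nearly lost. All 6 were thus called, beside 65.8% of all genes tested (31.8% higher and 34.1% lower). Sema3e reached the minimum in WT only and so had to differ. Sema3c, the most abundant class 3 gene per kb of exon, was at 2006, 1894 and 1915 normalized counts in WT and at 657, 570.0 and 591 in GαqKO. It lies at chr5:17779219-17935648 on GRCm39 and encodes a ligand of both neuropilins, and the WT libraries stood clear of the GαqKO libraries, with means 3.20-fold apart (log2 fold change −1.68 ± 0.06 SE, limma adjusted p = 2.27e-11). Sema3e, the class 3 ligand that binds plexin D1 without a neuropilin, is at chr5:14075290-14306719. Its values were 935, 891 and 924 in WT, whereas the 3 GαqKO libraries held 3 reads in all (0.939, 2.31 and 0 normalized counts). The ratio of WT to GαqKO was 846, with a 95% exact Poisson interval on those 3 reads of 289 to 4101, which covers counting error only, and the limma adjusted p was 4.32e-11. Sema3f, a repulsive ligand that acts through Nrp2, had 645, 578 and 669 in WT and 19.7, 24.3 and 27.2 in GαqKO, a level 26.6-fold lower (log2 fold change −4.68 ± 0.14 SE, limma adjusted p = 5.44e-12). Its locus is chr9:107558698-107587674.

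Sema3a, the collapsin that acts through Nrp1 and plexin A receptors, had a 95% interval of its log2 fold change (−0.63 to −0.37) that did not meet those of these 3 ligands. It fell from 768 ± 21.2 to 542 ± 26.9 normalized counts (SD, n = 3), a log2 fold change of −0.50 (limma adjusted p = 6.88e-06), and the lowest WT library, at 746, was above the highest GαqKO library, at 573. Sema3b, the neighbour of Sema3f, had 32.4, 43.7 and 55.0 in WT and 15.96, 23.1 and 24.2 in GαqKO, so the groups did not overlap, but its log2 fold change of −1.01 (95% interval −1.60 to −0.41, limma adjusted p = 0.0055) stood only just past the fold and came to −0.83 without WT 3 or without GαqKO 1. Sema3g was the one class 3 gene that rose, from 29.2, 28.2 and 33.6 to 66.7, 71.7 and 86.6 (log2 fold change 1.27 ± 0.20 SE, limma adjusted p = 7.61e-05). Sema3d was not tested. It had 16.7, 9.71 and 22.4 in WT and 5 reads over the GαqKO libraries (2.82, 2.31 and 0 normalized counts), a ratio of 9.52 with an interval of 4.08 to 29.3.

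Of the class 3 genes, 4 share chromosome 5, in the order Sema3d, Sema3a, Sema3e and Sema3c, with gaps of 536, 422 and 3472 kb. Sema3a lies between the genes with 5 and 3 reads in GαqKO and decreased by 0.50 on the log2 scale. Apart from these 4, no protein-coding gene within 500 kb of any of them passed the filter on low values. Sema3b and Sema3f lie 72.2 kb apart on chromosome 9, and of the 23 tested protein-coding neighbours within 500 kb of Sema3f, 1 was higher and 1 lower past the fold, with a median log2 fold change of −0.11.

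The transmembrane class 4 semaphorins comprised 2 genes that were all but lost, 1 that rose and 3 that did not pass the test. Sema4d, the ligand of plexin B1 (chr13:51836318-51947922), was at 240.2, 211 and 244 in WT and at 11.3, 3.47 and 10.1 in GαqKO. The level was 28.03-fold lower, with GαqKO 2 the lowest library and every GαqKO value far below the WT range (log2 fold change −4.78 ± 0.32 SE, limma adjusted p = 1.63e-08). Only in WT did all 3 libraries of Sema4d reach the minimum of 10, so the filter bears on this test. Sema4f (chr6:82887696-82916761) had 258, 254 and 279 in WT, while GαqKO 1 held 5 reads (4.70 normalized counts) and GαqKO 2 and 3 none. That is a ratio of 168 with an interval of 72.1 to 518 (log2 fold change −7.21, or −8.05 without GαqKO 1, limma adjusted p = 4.12e-08). Other annotated genes on either strand span 52.65% of the exon sequence of Sema4f, and the strand setting of the counting is not given in the sources used here. In the opposite direction Sema4a, a class 4 member best known from the immune system and the retina, rose from 7.31, 20.4 and 16.3 to 43.2, 50.9 and 32.2 (log2 fold change 1.54 ± 0.35 SE, limma adjusted p = 0.00162). For Sema4a only GαqKO had all 3 libraries at the minimum of 10.

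Sema4b and Sema4c, the most abundant class 4 genes per kb, did not pass the test. Sema4b had 613, 525 and 657 in WT and 550.3, 653 and 596 in GαqKO, overlapping ranges, with a log2 fold change of 0.01 and a 95% interval of −0.18 to 0.20 (limma adjusted p = 0.947). Sema4c, a ligand of plexin B2, had a log2 fold change of −0.07 (−0.23 to 0.09, limma adjusted p = 0.412), and Sema4g one of 0.18 (−0.23 to 0.59, limma adjusted p = 0.415). For Sema4b and Sema4c the intervals leave room for changes of no more than 0.23 in size.

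Class 5 semaphorins, which carry thrombospondin repeats in the extracellular part, moved in opposite directions. Sema5a (chr15:32244919-32696487) was at 37.6, 16.5 and 25.4 in WT and at 916, 758 and 725 in GαqKO, a 30.2-fold higher level and the largest rise among the 31 genes (log2 fold change 4.93 ± 0.22 SE, limma adjusted p = 2.22e-10). The only 2 tested protein-coding genes within 500 kb of Sema5a were not past the fold. Sema5b fell from 20.9, 27.2 and 35.6 to 4 reads over the 3 GαqKO libraries (0.939, 3.47 and 0 normalized counts), a ratio of 19.0 with an interval of 7.42 to 69.7 (limma adjusted p = 3.21e-05).

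Class 6 semaphorins, ligands of A-type plexins, were scarce in both genotypes. Sema6c, the most abundant of them in WT, had 73.1, 70.9 and 93.6 there and 14.1, 10.4 and 9.06 in GαqKO (log2 fold change −2.73 ± 0.26 SE, limma adjusted p = 4.92e-07). For Sema6c only WT had all 3 libraries at the minimum of 10. Sema6a and Sema6b rose from low counts. Sema6a was at 9.40, 0.971 and 1.02 in WT and 25.4, 18.5 and 14.1 in GαqKO (log2 fold change 2.52 ± 0.60 SE, limma adjusted p = 0.00216), with WT 1 well above the other WT libraries and a log2 fold change of 3.31 without it. Sema6b went from 5.22, 3.89 and 7.12 to 20.7, 27.8 and 26.2 (log2 fold change 2.03 ± 0.36 SE, limma adjusted p = 0.00019). Sema6d, with 13.6, 3.89 and 10.2 in WT and 16.9, 20.8 and 11.1 in GαqKO, overlapped between groups and did not pass (log2 fold change 0.86, 95% interval −0.10 to 1.81, limma adjusted p = 0.106), but without WT 1 the log2 fold change was 1.18 (limma adjusted p = 0.0435).

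Sema7a, the lipid-anchored semaphorin that signals through integrin beta 1 and plexin C1 and is linked to fibrosis, rose 7.54-fold. It lies at chr9:57847375-57870151 and had 59.5, 59.3 and 56.0 in WT and 409, 461 and 447 in GαqKO, with little spread inside either group (log2 fold change 2.89 ± 0.11 SE, limma adjusted p = 4.38e-11). Of its known receptors, Plxnc1 was at the limit of detection, with 3.13, 0 and 3.05 in WT and 2.82, 3.47 and 5.04 in GαqKO, and was not tested. Itgb1, the gene of integrin beta 1, was abundant in both genotypes and rose from 8254 ± 209 to 12548 ± 174 (log2 fold change 0.60, limma adjusted p = 1.04e-08), whereas Itga1, its alpha partner for Sema7a, was at 8.45 or less in every library and was not tested.

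**Figure D2:**
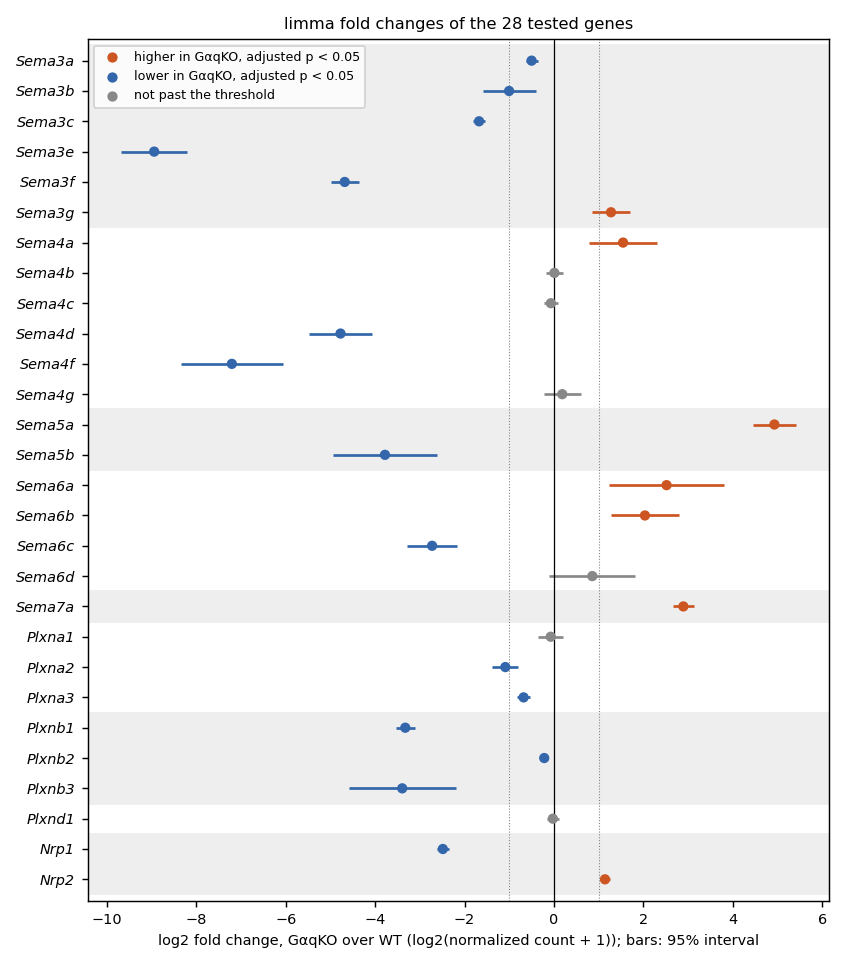
Log2 fold change of GαqKO over WT for the 28 tested genes, with the 95% interval of each as a bar, orange for genes that passed as higher, blue for those that passed as lower, and grey for the rest. Estimates run from −8.95 for Sema3e to 4.93 for Sema5a, and the intervals of the 6 grey genes include 0.

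B-type plexins, the receptors of class 4 semaphorins, all fell, with log2 fold changes from −3.40 to −0.22. Of all genes tested, 65.8% were called and 34.1% were lower, and Plxnb3 reached the minimum in WT only and so had to differ. Plxnb1 (chr9:108923419-108950427), the receptor of Sema4d, was at 667, 738 and 763 in WT and 65.7, 72.8 and 74.5 in GαqKO, which is 10.2-fold lower with a gap many times the spread of either group (log2 fold change −3.33 ± 0.10 SE, limma adjusted p = 3.98e-12). Plxnb2, the most abundant plexin per kb in both genotypes, fell only from 2564, 2532 and 2613 to 2290.3, 2148 and 2181 (log2 fold change −0.22 ± 0.04 SE, limma adjusted p = 0.00052). Plxnb3, on the X chromosome, was scarce, with 11.5, 10.7 and 16.3 in WT and 1 read over the GαqKO libraries, a ratio of 33.3 with an interval of 5.97 to 1314 (limma adjusted p = 0.000105).

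Of the A-type plexins, the signalling partners of neuropilins, 2 of the 3 tested fell (66.7% called, beside a background of 65.8%, with 34.1% lower). Plxna3, the most abundant of them per kb of exon in both genotypes, fell from 971, 1067 and 1199 to 655, 679 and 676 (log2 fold change −0.68 ± 0.07 SE, limma adjusted p = 1.35e-06). It is X-linked, and the median log2 fold change over the 379 tested protein-coding genes of that chromosome was −0.32, against −0.01 over all genes tested. Plxna2 fell from 213, 225 and 249 to 119, 116 and 88.6 (log2 fold change −1.09 ± 0.14 SE, limma adjusted p = 8.03e-06), just past the fold, and came to −0.96 without GαqKO 3. Plxna1 had 674, 641 and 1009.7 in WT and 747, 698 and 715 in GαqKO and did not pass (log2 fold change −0.07, 95% interval −0.35 to 0.20, limma adjusted p = 0.622). Its WT 3 value stood far above the other WT libraries and set the sign, since without WT 3 the log2 fold change was 0.13 (limma adjusted p = 0.0803), and other genes span 58.43% of its exon sequence. Plxna4 was at 11.6 or less in every library and was not tested. Plxnd1, the receptor of Sema3e, overlapped between genotypes, at 694, 712 and 733 in WT and 677, 745 and 679 in GαqKO (log2 fold change −0.03, 95% interval −0.16 to 0.10, limma adjusted p = 0.706).

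The 2 neuropilins moved in opposite directions. Nrp1 (chr8:129085085-129231082), the co-receptor of Sema3a and of VEGF-A, had 1211, 1176 and 1284 in WT and 223, 217 and 211 in GαqKO, a 5.64-fold lower level with no overlap (log2 fold change −2.49 ± 0.07 SE, limma adjusted p = 1.14e-12). Other genes span 59.12% of the exon sequence of Nrp1. Nrp2 (chr1:62742444-62857854), the co-receptor of Sema3f and of VEGF-C, had 2422, 2497 and 2801 in WT and 5864, 5514 and 5601 in GαqKO, and so was 2.20-fold higher (log2 fold change 1.14 ± 0.05 SE, limma adjusted p = 3.87e-10). Per kb of exon, Nrp2 stood at percentile 82.8 of the tested protein-coding genes in WT and at percentile 94.2 in GαqKO, and Nrp1 at percentiles 57.5 and 21.7. The ratio of Nrp2 to Nrp1 per kb was 2.53, 2.69 and 2.76 in the WT libraries and 33.4, 32.1 and 33.6 in GαqKO, a log2 difference of 3.63 (exact two-sided permutation test, p = 0.1, the smallest that 3 against 3 libraries can give).

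Known ligand and receptor pairs are set side by side here. For Sema4d and Plxnb1 both sides fell, with log2 fold changes of −4.78 and −3.33. For Sema3e and Plxnd1 the ligand all but disappeared while the receptor had a log2 fold change of −0.03. For Sema3f and Nrp2 the ligand fell and the co-receptor rose, and for Sema3a and Nrp1 both fell, the co-receptor by more. Sema4c had a log2 fold change of −0.07 and Plxnb2 one of −0.22. No test was made of whether the 2 sides of a pair were tied.

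Summed over genes per kb of exon, which allows genes of different length to be added, class 3 went from 492 ± 14.5 to 134 ± 5.20 (SD, n = 3), class 4 from 219.6 ± 10.3 to 164 ± 10.1, class 5 from 4.85 ± 0.815 to 39.3 ± 4.98, and class 7 from 17.5 ± 0.593 to 132 ± 8.08. Class 6 was at 9.36 ± 1.60 and 8.17 ± 0.880, with overlapping libraries. Among receptors, A-type plexins went from 200.4 ± 27.7 to 138 ± 0.826, B-type plexins from 372 ± 7.73 to 275 ± 8.69, and neuropilins from 294 ± 19.9 to 485 ± 15.4, while plexins C1 and D1 together were at 90.1 ± 2.44 and 88.7 ± 4.83. In the 7 classes other than class 6 and plexins C1 and D1 every library of one genotype lay above every library of the other, for which the exact two-sided permutation test gave p = 0.1 (0.129 after Benjamini-Hochberg over 9 classes), the smallest these 6 libraries can give. The same exact test gave p = 0.4 for class 6 and p = 0.6 for plexins C1 and D1. Values of 2 classes depended on the division by exon length. Without it the log2 ratio of class 5 was 3.88 in place of 3.02, and that of class 6 was −0.45 in place of −0.20, with p = 0.1 by the exact test and no overlap.

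**Figure D3:**
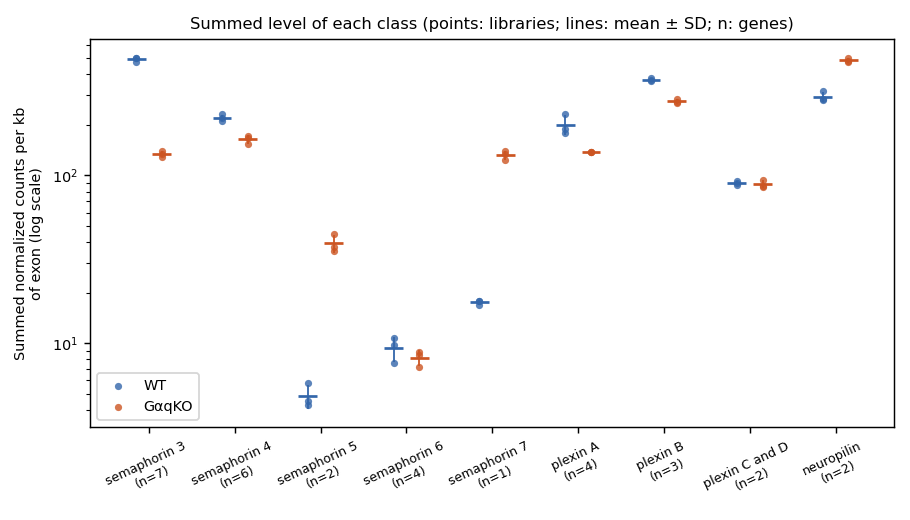
Summed normalized counts per kb of exon for each class on a log axis, with 1 point per library and the mean ± SD as lines, WT in blue and GαqKO in orange. Class 3 lies at 492 in WT and 134 in GαqKO, class 7 at 17.5 and 132, and class 6 and plexins C1 and D1 overlap.

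The make-up of the semaphorin pool differed between genotypes. In WT, the 20 semaphorins summed to 743 ± 25.6 per kb, of which Sema3c made up 31.9%, Sema3f 15.02%, Sema4b 12.1% and Sema3e 10.3%. In GαqKO the sum was 478 ± 9.04, and the leading gene was Sema7a at 27.7%, against 2.36% in WT, followed by Sema4b at 19.0%, Sema3c at 15.5%, Sema4c at 12.8% and Sema5a at 8.20%, against 0.174%. Sema3e and Sema3f made up 0.0188% and 0.879%. The gains in share of Sema4b and Sema4c came with levels that did not pass the test, in a pool that was smaller as a whole. In the plexin pool, which summed to 663 ± 37.8 and 502 ± 6.86 per kb, Plxnb2 led both genotypes, at 47.5% in WT and 53.7% in GαqKO, Plxna3 at 20.6% and 16.9%, Plxnd1 at 13.6% and 17.6%, and Plxnb1 at 8.43% and 1.09%. Nrp1 made up 27.3 ± 0.893% of the neuropilin pool in WT and 2.94 ± 0.0677% in GαqKO.

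**Figure D4:**
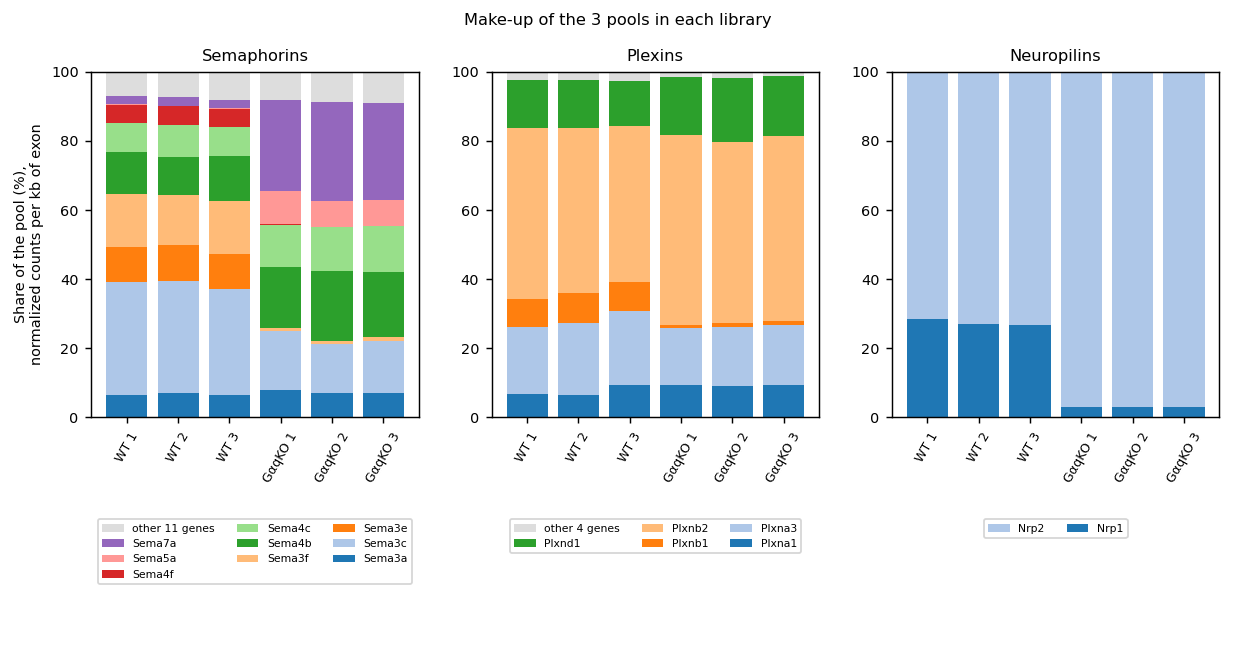
Share of each gene in the summed normalized counts per kb of semaphorins, plexins and neuropilins, with 1 stacked bar per library adding up to 100% and genes that stay under 5% in every library pooled in grey. Sema7a takes 2.36% of the semaphorins in WT and 27.7% in GαqKO, and Nrp1 27.3% and 2.94% of the neuropilins, while Plxnb2 leads the plexins in all 6 bars.

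Partner genes of the pathway, 72 in all, covered other ligands of neuropilins, further receptors, GTPases and their regulators, kinases, cytoskeletal effectors and the proteases that cut semaphorins. Of these, 13 were too low to be tested and 6 reached the minimum in only 1 group. Among the 59 tested, 18 were higher and 30 lower, or 81.4%, beside the background of 65.8%, and 4 were higher and 12 lower past the fold, or 27.1% beside 20.7%. The 6 that reached the minimum in only 1 group (Flt4, Mst1r, Crmp1, Mical1, Hgf and Pgf) had to differ and were all past the fold. Among the other 53, 17 were higher and 25 lower (79.2%, beside 63.5% of all genes that reached the minimum through both groups) and 10 were past the fold (18.9% beside 15.2%). The median size of the log2 fold change over the 59 was 0.40, beside 0.39 over all genes tested.

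Among the other ligands of neuropilins, 4 of 6 were higher and 1 lower (83.3% called), beside 65.8% of all genes tested (31.8% higher and 34.1% lower). The lower one was Pgf, which reached the minimum in WT only and so had to differ. Hgf, the ligand of the receptor Met, went from 2.09, 0.971 and 1.02 in WT to 262, 274 and 278 in GαqKO. It is 1 of the 6 genes that had to differ, and its ratio of GαqKO to WT was 200, with an exact Poisson interval on its 4 WT reads of 78.0 to 733. Met itself rose by 0.27 on the log2 scale (limma adjusted p = 0.000728). Vegfc, the lymphatic growth factor that binds Nrp2, rose from 80.4, 63.1 and 73.3 to 444, 430.1 and 453 (log2 fold change 2.60 ± 0.11 SE, limma adjusted p = 1.92e-10). Vegfa, the main angiogenic factor, had a log2 fold change of −0.03 and did not pass (limma adjusted p = 0.706). Of the 14 further receptors only 6 were tested, with 2 higher and 4 lower (100% called, beside 65.8% of all genes tested). Of the 4, Flt4 and Mst1r reached the minimum in WT only and so had to differ. Also lower was Flt1, the VEGF receptor 1, which fell from 1117, 1169.6 and 1170.5 to 283, 257 and 281 (log2 fold change −2.07 ± 0.06 SE, limma adjusted p = 6.37e-12).

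Downstream, 1 kinase was higher and 9 were lower of 12 tested (83.3% called), and 2 cytoskeletal effectors were higher and 7 lower of 11 (81.8%), beside 65.8% called over all genes (31.8% higher and 34.1% lower). Fyn, a Src family kinase engaged by plexin A, fell from 344, 309 and 377 to 111, 82.1 and 92.6 (log2 fold change −1.84 ± 0.13 SE, limma adjusted p = 2.38e-08). Ptk2b, the kinase Pyk2, was the one kinase that rose, from 21.9, 18.5 and 20.4 to 183, 210.4 and 168 (log2 fold change 3.14 ± 0.18 SE, limma adjusted p = 2.58e-09). The MICAL proteins are oxidases that take actin filaments apart on a plexin signal, and all 3 genes were lower in GαqKO. Mical1, which reached the minimum in WT only and so had to differ, went from 209, 229 and 259 to 3.76, 2.31 and 7.05. Mical2 fell from 2392, 2398 and 2546 to 557, 578 and 599 (log2 fold change −2.08 ± 0.05 SE, limma adjusted p = 7.73e-13), while Mical3 fell by 0.34.

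Of GTPases and their regulators, 8 were higher and 6 lower of 19 tested, or 73.7%, near the background of 65.8%, with a median log2 fold change of 0.05. Of these, 2 passed the fold. Rap2b, of the Rap family that plexins inactivate, rose from 287, 296 and 278 to 706, 742 and 766 (log2 fold change 1.36 ± 0.07 SE, limma adjusted p = 7.12e-10). Rnd1, a GTPase that binds plexins and is named here after its values were seen, fell from 1305, 1353 and 1351 to 475, 561 and 502 (log2 fold change −1.38 ± 0.06 SE, limma adjusted p = 3.54e-10). Of the 5 tested proteases, 1 was higher and 3 were lower (80.0% called, beside the background of 65.8%), all within the fold. The one that rose was Furin, which trims class 3 semaphorins, with a log2 fold change of 0.43 (limma adjusted p = 8.55e-06).

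**Figure D5:**
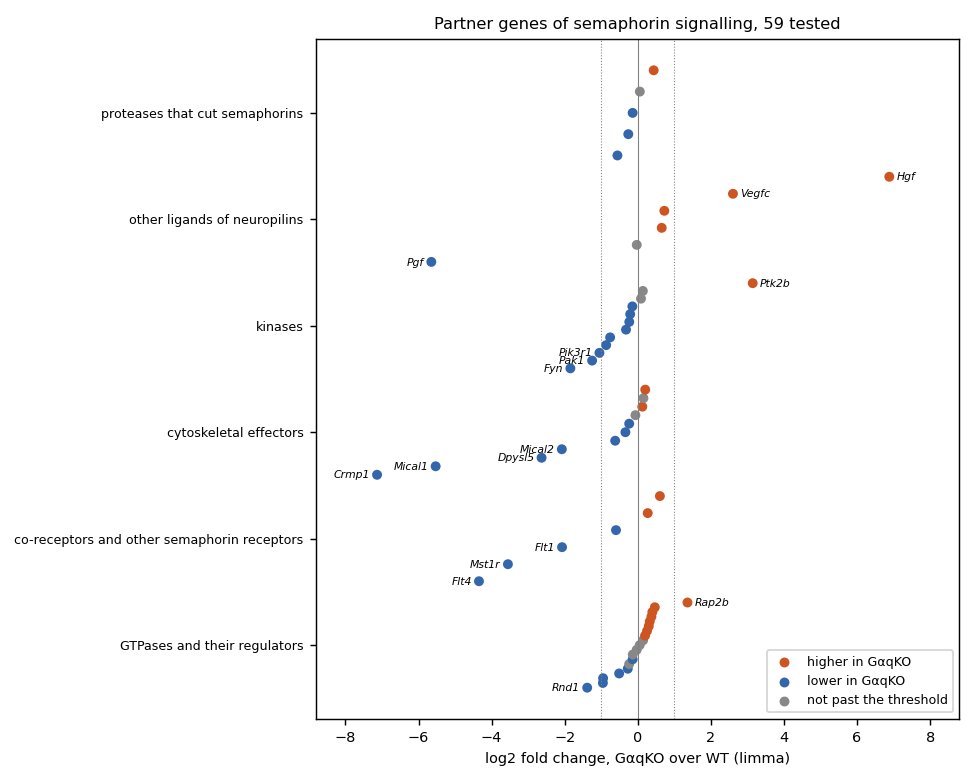
Log2 fold change of GαqKO over WT for the 59 tested partner genes by role, with 1 point per gene, orange for genes that passed as higher, blue for those that passed as lower and grey for the rest, and names on those beyond the dotted lines. Most points lie between the dotted lines at −1 and 1, and the named points reach from Crmp1 at −7.13 to Hgf at 6.88.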

How the data were processed

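RNA of 3 WT and 3 GαqKO MEF cultures was sequenced as poly-A selected, stranded libraries (2 × 150 bp). The authors aligned reads to GRCm39 with Rbowtie2, counted them per gene of GENCODE M32 with featureCounts and scaled them with DESeq2, and deposited 1 table of size-factor-scaled counts per gene, a signal unit and not raw counts. Rbowtie2 is not splice-aware, so reads across exon junctions may be lost. Versions and the strand setting are not given in the sources used here. The members and gene lists were chosen with earlier results of these data known.

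Of the gene identifiers, 98.9% matched GENCODE M39 on the same build, which gave symbols, positions and exon lengths. The values of 5 libraries came out as whole multiples of 1 read within 0.1 for 100% of genes. GαqKO 3 was left out of this step, so edgeR and DESeq2 used 5 libraries. The main test was limma 3.58.1 (R 4.3.3) with a trend on log2(normalized count + 1), without a block, over the 14096 genes that reached 10 normalized counts in 3 or more libraries. It was first run on data simulated from the WT means, with few genes changed and the same small dispersion for every gene. That setting differs from these data, so the run does not show how the test performs on them. Sums per class were compared by an exact two-sided permutation test (scipy 1.17.1). Alternatives were TMM scaling, other filters and pseudocounts, no trend, a replicate block, leaving out each library, class sums not divided by exon length, and edgeR 4.0.16 and DESeq2 1.42.0 on the recovered reads, which called 8763 and 7769 of 14096 genes, beside 9279 by limma. Every member is accounted for, and those past a log2 fold change of 1, the most abundant of each class and those that lose a call or turn are named with library values. Of the partners, the 4 largest rises and falls are named where the mean reached 100 normalized counts. Itgb1, Itga1, Met, Vegfa, Mical3, Rnd1 and Furin were added after their values were seen. Intervals on few reads are exact Poisson intervals. The share of exon sequence spanned by other genes is given above for the members where it was largest, Nrp1, Plxna1 and Sema4f. Other named genes also had such overlap, for example 31.94% for Plxna2, 22.5% for Sema3e, 34.57% for Fyn and Ptk2b and 34.29% for Mical1.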

Additional observations from a re-analysis of the deposited data

How the results depend on the processing

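The counts of 7 higher and 15 lower genes were 7 and 15 under TMM scaling, both other pseudocounts, no trend, edgeR and DESeq2. The count of lower genes past the fold was 11 in place of 12 under TMM scaling and a pseudocount of 5, where Sema3b stood at −0.997 and −0.889, and by edgeR and DESeq2, where Plxna2 stood at −0.953 and −0.951. With no filter on low values 7 were higher and 16 lower. A minimum of 10 normalized counts in each of the 6 libraries left 4 higher and 9 lower, of which 4 and 6 were past the fold, because genes with any library under 10 are then no longer tested. Leaving out 1 library at a time gave 7 to 8 higher and 15 lower, and 7 to 8 higher and 11 to 12 lower past the fold, with Sema6d (1.18 without WT 1) as the gene gained. The replicate numbers did not pair the libraries, with correlations of −0.045, −0.148 and −0.064 between same-numbered ones, and with a replicate block the counts were 7 and 15. Under that block 17 partners were higher and 29 lower, and DESeq2 gave 15 and 24, beside 18 and 30. Signs turned for 3 genes and 1 class near 0, none past the threshold. With 1 library left out, the log2 fold change of Plxna1 ran from −0.196 to 0.132, the latter without WT 3, and that of Sema4b from −0.0840 to 0.0776, negative without WT 2 and without GαqKO 2 (−0.0559). Plxnd1 had 0.003131 by edgeR and 0.006664 by DESeq2. The plexin C and D sum had a log2 ratio between −0.0692 and 0.001209 on leaving out 1 library, above 0 without GαqKO 1. Depth limits the genes with 5 or fewer reads in GαqKO to the intervals given with them. The cause of the turned signs was not tested.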
